A study of Bos taurus with 18 samples.

Results

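Clone A was 1 of 17 populations of bovine mesenchymal stem cells (MSCs) that had each been grown from a single cell, and it was set against the 16 other clones, lettered B to Q. It was taken by its sample title, as the clone labelled A. It was chosen by its read counts on adipocyte, osteoblast and osteoclast genes, which were already known, so those levels are a description and carry no test. The labels name no genetic change and no added agent for any of the 17 clones, which were derived from the bone marrow of the same juvenile Bos taurus donor, expanded as monolayers on tissue culture plastic in DMEM with FBS and antibiotics, and lysed at passage 1 for sequencing of poly-adenylated RNA. The series held 18 libraries, and the remaining one, a heterogeneous population of many cells from that donor, was left out of every comparison between the clones. The study asked whether the transcriptome of undifferentiated clones foretells their capacity to deposit cartilage matrix. Each clone gave 1 library, so clone A had no replicate, its own error was unknown, and every spread given here is the spread between the 16 other clones.

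MSCs of the marrow are connective tissue progenitors that can be driven to become adipocytes, osteoblasts or chondrocytes. PPARG and CEBPA are the transcription factors that switch on fat storage genes, while RUNX2 and SP7 stand at the head of bone formation, in which type I collagen is laid down and then mineralized with the help of alkaline phosphatase. Osteoclasts are not stromal cells. They arise from the monocyte lineage when the receptors CSF1R and TNFRSF11A (RANK) are engaged by ligands that stromal and bone cells make, and they dissolve bone with acid and the protease cathepsin K.

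The library of clone A held 12307737 reads on genes, against 11484812 to 18458157 in the other clones, and only clone D had fewer. The share of all its reads that overlapped no gene feature used for counting was 18.8%. It was the lowest of the 17 clones (19.2% to 26.8% in the others). Its scaling factor by TMM, a method that sets libraries level by the genes that vary little, was also the lowest at 0.889 (0.896 to 1.16 in the others). Values in CPM are counts scaled to the same total of reads on genes in every library, and TMM-scaled values are given beside them wherever the picture shifts. Over the 11761 genes with enough reads to be tested, the median log2 difference of clone A from the median of the other clones was -0.15 on CPM and 0.01 after TMM scaling. A CPM difference near -0.15 was therefore the level of a typical gene in this library. Clones C and O were the closest pair of the 16, with a chi-square of 4.90 per degree of freedom between their counts. The next pair, E and F, had 22.3. Counting noise alone gives about 1, but separate libraries of the same cells can exceed it too. Whether C and O were separate clones was therefore not tested, and each was counted as 1 sample by its label.

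The library looked like the stromal cells of its label. THY1, NT5E and ENG, the surface proteins by which MSCs are defined, stood at 372, 479 and 236 CPM, all inside the range of the other clones, and PTPRC, the pan-leukocyte protein CD45, had 0 reads. Of the 16 stromal genes tested, 9 lay over the median of the other clones on CPM and 11 after TMM scaling, where 32.7% and 51.2% of all tested genes did, and 0 lay outside their range, where 1.58% of all tested genes lay above it and 14.1% below it on CPM. Of other stromal markers, VCAM1 had 3 reads, NGFR had 1 read and LEPR had 0. Matrix genes took the most reads. COL1A1 took 7.62% of the reads on genes (1.52% to 9.27% in the others) and COL1A2 took 4.56% (1.85% to 6.71%). Of the 10 genes with the most reads, clone A was the highest of all 17 clones in FLNA, an actin crosslinker, at 0.823% of reads against at most 0.801%, and in COL6A2, a chain of type VI collagen, at 0.739% against at most 0.674%.

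No single gene set clone A apart from the other clones at an adjusted p under 0.05 in edgeR's quasi-likelihood test with Benjamini-Hochberg adjustment, in which 0 of 11761 genes (0%) were called. The share of tested genes at an unadjusted p under 0.05 was 3.82% in edgeR, 4.18% in DESeq2 and 3.99% in limma. With no difference in any gene the mean share would be 0.05, so these shares were no excess. The Wald test of DESeq2 called 1 gene (0.0085%), with 492 at an unadjusted p under 0.05, and limma called 0, with 469. In this fit the lone library was assumed to vary as the 16 others did, with a biological coefficient of variation of 36.4%. A permutation of 1 clone among 17 could give no one-sided p below 0.0588, so none was run gene by gene.

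The gene nearest to the threshold was PTPRN, which encodes a phosphatase-like membrane protein of the secretory granules of neuroendocrine cells. Clone A had 65 reads on PTPRN, or 5.28 CPM, where the other clones had 2 to 17 reads, from 0.174 to 1.12 CPM with a median of 0.559. It lay far above all of them, 4.73-fold over the next clone, G. The log2 difference by edgeR was 3.37 (SE 0.53, adjusted p = 0.0650), and DESeq2 called it with an adjusted p of 0.0208, whereas limma gave 0.988. With other clones left out in turn, edgeR called it only without clone E or without clone G, and not without any of the rest. GALNT9, an enzyme that starts O-linked sugar chains, followed with 57 reads in clone A against 1 to 12 in the others. Its 4.63 CPM compared with 0.0577 to 0.845 elsewhere (median 0.340), 5.48-fold over clone J, the next clone, with a log2 difference of 3.83 (SE 0.72, edgeR adjusted p = 0.282). Both genes fell below the mean of 1 CPM that the naming rule required and were chosen after their values were seen.

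Few genes with a fair number of reads showed such a gap. Among genes with at least 30 reads in clone A, 8 lay 2-fold or more above the next clone, and the other 6 were ATP2B3, SLIT3, ANO1, MMP17, ATP1B4 and FGF10. SLIT3, a secreted guidance ligand of the ROBO receptors, was the most abundant of these, with 66.1 CPM in clone A against 1.72 to 27.95 in the others (median 10.9), 2.37-fold over clone D. ANO1, a calcium-activated chloride channel, had 3.25 CPM against 0.108 to 1.39 (median 0.580). SLIT3 and ANO1 were likewise chosen after their values were seen. In the other direction, among genes with at least 30 reads in every other clone, 1 gene lay 2-fold or more below the next clone. It was CEP19, a centrosome protein, at 1.46 CPM against 3.36 to 8.93 in the others (median 4.04), with clone M the next. The counts of 8 and 1 were taken from the 11761 tested genes after these limits on reads. The limits differed between the directions, and no other clone was counted in this way. Whether the counts are unusual for a clone was therefore not tested.

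How often clone A was the lowest of the 17 clones depended on the scaling. On CPM it lay above all 16 others in 186 genes (1.58%) and below all of them in 1660 genes (14.1%). The latter was the largest such count of any clone, followed by 1429 in clone F and 1337 in clone M, while only clone B was the highest in fewer genes, at 72. After TMM scaling the counts came to 698 genes above (5.93%) and 787 below (6.69%), and clone A no longer held the largest count of lowest genes. Clone A had the lowest TMM factor, and dividing by that factor is the step that separates the CPM counts from the TMM-scaled ones. Clone A also had the lowest share of reads on no gene feature, and the part of that share in the count was not tested.

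**Figure D1:**
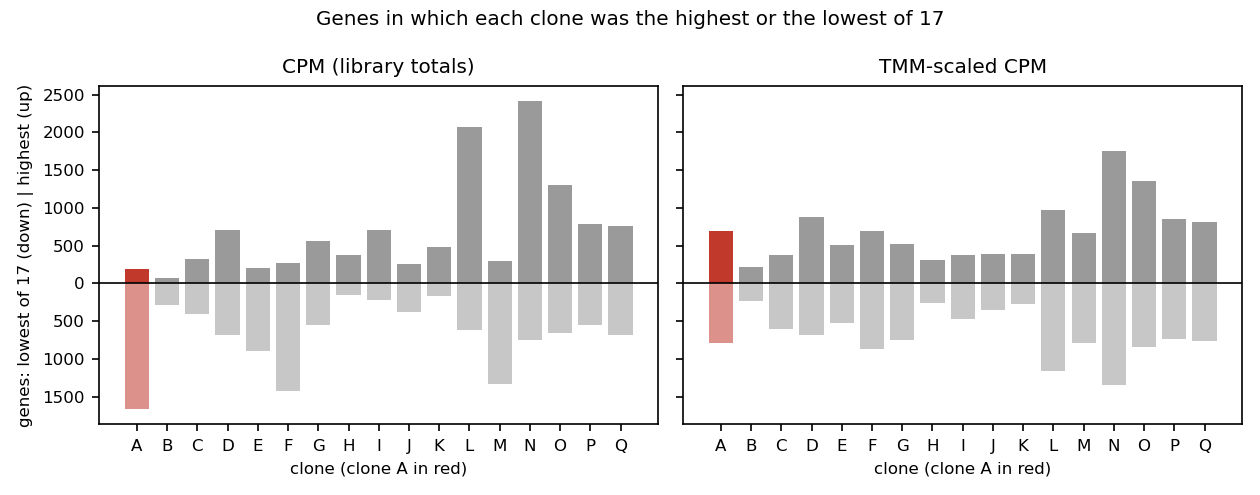
Number of tested genes (y axis, of 11761) in which each of the 17 clones (x axis) was the highest (bars above 0) or the lowest (paler bars below 0), on CPM at left and on TMM-scaled CPM at right, with clone A in red. On CPM clone A was the lowest in 1660 genes and the highest in 186, and after TMM scaling in 787 and 698.

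By the naming rule, the 12 genes with the smallest edgeR p among those in which clone A lay above all others, and the 12 among those in which it lay below, are described here. None of the 24 was called by edgeR. All 24 stayed outside the range of the other clones after TMM scaling. The edgeR p that picked them used TMM scaling too, so this was no separate check. Of the higher genes, SLC39A13, a zinc transporter whose loss causes a disorder of skin and bone, had the smallest spread between the other clones (SD 0.14 on the log2 scale, n = 16). It stood at 228 CPM in clone A against 134 to 188 in the others (median 154). The log2 difference by edgeR, which used TMM scaling, was 0.70 (SE 0.17), and from the median on CPM it was 0.56. Others differed more and also varied more between clones. MMP17, a membrane-anchored metalloproteinase, stood at 25.4 CPM in clone A against 1.22 to 10.9 (median 4.77). Its log2 difference was 2.52 by edgeR (SE 0.63) and 2.36 from the median on CPM. FGF10, a growth factor that mesenchyme sends to epithelia, stood at 5.52 CPM against 0.572 to 2.72 (median 1.52).

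ATP1B4 and ATP2B3 were also among them. ATP1B4, of the sodium pump beta subunit family, stood at 13.7 CPM in clone A against 0.138 to 6.30 in the others (median 1.54). ATP2B3, a calcium pump of the plasma membrane, stood at 5.36 CPM against 0 to 1.90 (median 1.34). LAPTM5, a lysosomal membrane protein known from blood cells, stood at 25.7 CPM against 1.04 to 20.4 (median 4.08), only a little over the highest other clone, L. The lipid enzymes ABHD2, a hydrolase, and AGPAT2, described with the adipocyte genes, belonged to the same 12, together with DNASE1L1, a DNase I relative, IQCD, KIAA0415 and C15H11orf49. DNASE1L1 stood at 47.0 CPM against at most 35.1 in another clone. The lead was narrow for KIAA0415, at 75.5 CPM against at most 71.4, and for C15H11orf49, at 18.5 CPM against at most 17.9.

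The lower genes differed by less than the largest of the higher ones. FMR1, an RNA-binding protein that restrains translation, stood at 24.4 CPM in clone A against 32.3 to 51.7 in the others (median 40.8). Its log2 difference was -0.56 by edgeR (SE 0.14) and -0.74 from the median on CPM. SMC6, of a complex that guards chromosome structure, stood at 45.3 CPM against 64.0 to 114 (median 76.7). FANCM, a DNA translocase of the Fanconi anaemia pathway, stood at 6.17 CPM against 10.2 to 23.2 (median 14.3). Of 3 genes of the centrosome and cilium, CEP19 was given above, KIAA0586 stood at 12.9 CPM against 19.4 to 29.9 and CEP350 at 41.4 CPM against 56.1 to 89.5. SLC18A2, the vesicular monoamine transporter, had 6 reads against 18 to 42, and ZBTB25, a zinc finger protein, had 5 reads against 14 to 33. The remaining ones were FBXO22, FAM175B, NADKD1 and PHIP, of which PHIP showed 21.5 CPM against 35.8 to 78.8.

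**Figure D2:**
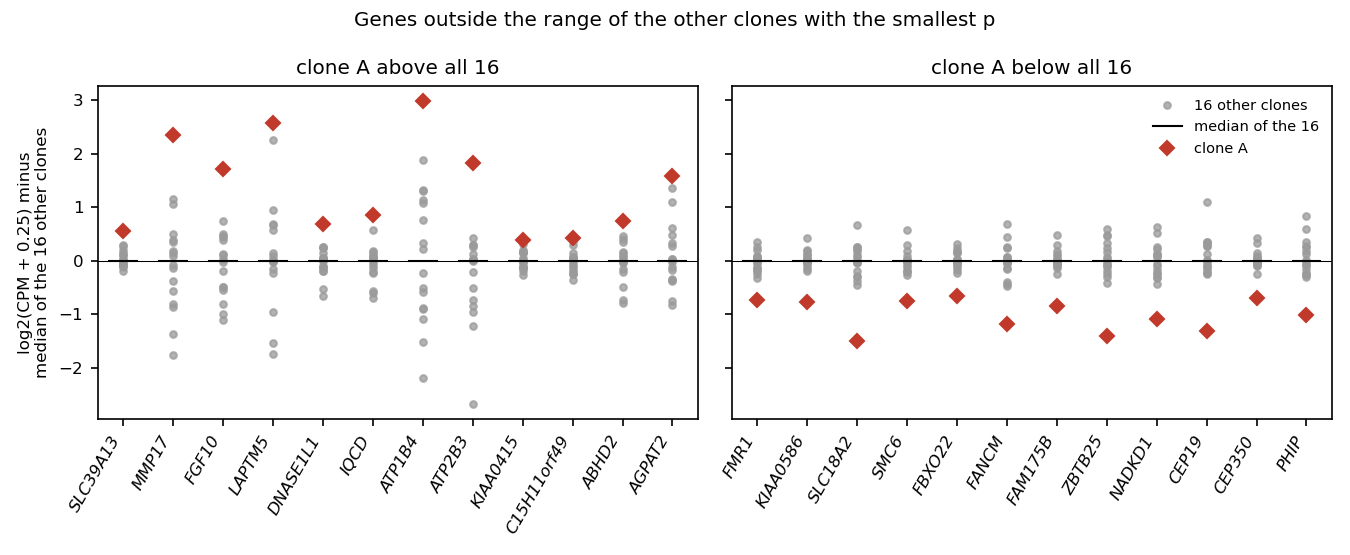
The 12 genes in which clone A lay above all other clones and the 12 in which it lay below, each set with the smallest edgeR p, as log2(CPM + 0.25) minus the median of the 16 other clones (y axis). Red diamonds are clone A, grey points the 16 other clones and black bars their median. The SD of the 16 other clones was largest for ATP1B4 (1.18) and smallest for SLC39A13 (0.14), so small distances and large ones both reached the lowest p.

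The adipocyte list gave clone A a middling place on CPM. Of 36 members, 35 were in the annotation, 31 had a read in some clone and 27 had enough reads to be tested. Of these 27, 14 lay over the median of the other clones on CPM and 16 after TMM scaling, where the shares over all tested genes were again 32.7% and 51.2%. The median log2 difference was 0.10 on CPM, place 7 of the 17 clones, and 0.32 after TMM scaling, place 2 after clone H. The sign on CPM rested on single clones, since the median turned negative without clone B, D, E, F, J, K, N, P or Q, down to -0.16 without B, F or K. In bulk RNA, more cells of a type and more RNA per cell cannot be told apart.

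Of the factors that drive fat differentiation, CEBPA was high in clone A and PPARG was ordinary. CEBPA had 17.6 CPM in clone A against 3.12 to 20.1 in the others (median 12.1), place 2 of 17. PPARG had 11.9 CPM against 2.62 to 24.2 (median 10.9), close to the middle of the clones. CEBPD, which acts early in fat differentiation, had 10.8 CPM against 9.52 to 42.6 (median 20.6), place 15. EBF1, a transcription factor of the same programme, was at 30.5 CPM against 24.9 to 157 (median 47.4). The factors thus did not lie on one side of the other clones.

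The genes of lipid storage were led by AGPAT2, the acyltransferase that makes phosphatidic acid on the way to triglycerides and whose loss causes lipodystrophy. It was the only adipocyte gene tested in which clone A lay above all others on CPM, with 1117 reads and 90.8 CPM against 17.0 to 77.6 in the others (median 30.3). Clone I was the next. PLIN2, the coat protein of small lipid droplets, had 239.7 CPM in clone A against 136 to 240.4 (median 187), which placed clone A just under the highest clone on CPM and above all others after TMM scaling. CIDEA, another droplet protein, had 6.50 CPM against 1.07 to 9.77 (median 3.11), place 3. PLIN1, the droplet coat of mature fat cells, had 4.55 CPM against 3.37 to 7.26 (median 5.47), place 15. Fatty acid synthase (FASN), at 293 CPM against 116 to 809 (median 323), and ACACA, at 42.5 CPM against 32.2 to 110 (median 56.7), lay inside the range, below the median.

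Late and secreted fat genes in clone A were near the middle of the other clones. ADIPOQ, the hormone adiponectin, had 4.79 CPM against 0.516 to 27.95 (median 4.22). FABP4, the fatty acid carrier of fat cells, had 7.15 CPM against 0.710 to 85.5 (median 4.99). LPL, which releases fatty acids from lipoproteins, had 4.79 CPM against 0.893 to 15.03 (median 2.54). RBP4, the retinol carrier, was higher in rank, with 87.2 CPM against 31.8 to 111 (median 49.0), place 4. PLIN4 had 1 read and G0S2, an inhibitor of lipolysis, had 6 reads against 2 to 209. LEP, the hormone leptin, was above all other clones by 1 read against 0 or 1 and was not tested. SCD, PNPLA2, CFD and PCK1 had 0 reads in every clone. Many cell types use SCD and PNPLA2, so a gene at 0 in every library may have been lost in the annotation or the counting, and such a 0, here and in the other lists, does not show that the gene was silent. CIDEC and RETN had 0 reads in clone A, and CEBPB was not in the annotation.

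The osteoblast list stood higher in clone A than in most clones. All 34 members were in the annotation, 31 had a read in some clone and 26 were tested. Of these 26, 16 lay over the median of the other clones on CPM and 20 after TMM scaling, again beside 32.7% and 51.2% of all tested genes. The median log2 difference was 0.28 on CPM and 0.45 after TMM scaling, place 2 of 17 both ways, after clone M. By role, 6 of 7 bone matrix genes, 4 of 8 transcription factors, 3 of 5 mineralization genes, 2 of 4 signalling genes and 1 of 2 surface genes lay over the median on CPM. Some of these rest on few reads. The 6 bone matrix genes include IBSP and BGLAP, with 4 reads each in clone A. The 3 mineralization genes were ALPL, PHOSPHO1 and PHEX, with 18, 10 and 9 reads.

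The transcription factors of bone held the only members outside the range of the other clones that were tested, and they pointed in opposite directions. DLX5, a homeobox factor that acts upstream of SP7, had 11.8 CPM in clone A against 1.999 to 11.6 in the others (median 5.93), a narrow lead over the highest clone. MSX2, a homeobox factor of bone and skull growth, had 20 reads and 1.62 CPM against 39 to 126 reads and 2.53 to 8.84 CPM (median 4.14), below all others. Both held after TMM scaling. SP7 (osterix) had 47.9 CPM in clone A against 5.74 to 75.3 (median 25.03), place 5. RUNX2 had 92.9 CPM against 64.1 to 164 (median 102), slightly under the median. VDR, the vitamin D receptor, had 96.6 CPM against 13.3 to 131 (median 67.4).

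Of the matrix genes, SPP1 (osteopontin), a phosphoprotein of bone, had 1304 CPM in clone A against 243 to 1878 (median 755), place 3. COL1A1, COL1A2 and SPARC, the main matrix products of osteoblasts and of fibroblasts alike, each lay over the median and at place 6 or 7 of 17. The markers of mature, mineralizing osteoblasts were scarce. IBSP (bone sialoprotein) had 4 reads against 0 to 112, BGLAP (osteocalcin) had 4 reads against 0 to 17, and DMP1 had 0 reads in every clone. ALPL, tissue-nonspecific alkaline phosphatase, had 18 reads and 1.46 CPM against 0 to 12.2 CPM (median 0.684). PHOSPHO1, a phosphatase that starts mineral inside matrix vesicles, had 10 reads against 0 to 17. All these counts lay inside the range of the other clones, and no difference was detectable at this depth.

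Among signalling and surface genes, BMP2, the growth factor that induces bone, had 74.1 CPM in clone A against 13.4 to 97.2 (median 32.7), place 4. LRP5, a Wnt co-receptor, went the other way with 5.77 CPM against 4.15 to 31.8 (median 12.98), place 16. CADM1, a cell adhesion protein, had 66.5 CPM against 15.2 to 73.9 (median 52.9), place 3. PDPN (podoplanin), a surface protein of young osteocytes that varied widely between clones, had 0.731 CPM against 0.0724 to 76.8 (median 3.32). IFITM5 and CDH11 had 0 reads in every clone, and MEPE, FGF23 and TNFRSF11B had 0 in clone A.

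The osteoclast list as a whole held a middle place in clone A on CPM and stood higher after TMM scaling. Of 20 members, 19 were in the annotation, 17 had a read in some clone and 13 were tested. Of these 13, 7 lay over the median of the other clones on CPM and 9 after TMM scaling, beside 32.7% and 51.2% of all tested genes. The median log2 difference was 0.01 on CPM, place 8 of 17, and 0.21 after TMM scaling, place 2 after clone E. On CPM it ran from -0.03 without clone K or M to 0.04 without clone B, E, G, H or L. The tested members outside the range of the other clones were the 2 receptors that commit precursors to the osteoclast fate, again in opposite directions. TNFRSF11A (RANK) had 14 reads and 1.14 CPM in clone A against 0 to 11 reads and 0 to 0.799 CPM (median 0.175), the highest of 17. CSF1R, the receptor for the survival factor of monocytes, had 2 reads and 0.162 CPM against 3 to 22 reads and 0.207 to 1.56 CPM (median 0.576), the lowest of 17. Both rest on few reads, and both positions held after TMM scaling.

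Genes that carry out resorption were ordinary in clone A. CTSK (cathepsin K), which fibroblasts also express, had 1263 CPM against 774 to 3720 (median 1605). ACP5, the tartrate-resistant phosphatase, had 11 reads against 3 to 33, and MMP9, a gelatinase, had 3.17 CPM against 0.0715 to 16.2 (median 4.20). NFATC1, the master factor of osteoclasts, had 95.9 CPM against 37.9 to 135 (median 69.7), place 6. ITGB3, a chain of the vitronectin receptor, had 374 CPM against 69.2 to 590 (median 372). TCIRG1, a proton pump subunit of acid secretion, had 48.9 CPM against 33.3 to 57.0 (median 43.6), place 4. ATP6V0D2 was above all others by 1 read against 0 or 1. The fusion genes DCSTAMP and OCSTAMP had 0 reads in every clone, SIGLEC15 had 0 in clone A, SPI1 and CALCR had 1 read each, and OSCAR was not in the annotation.

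The factors by which stromal cells feed or restrain osteoclasts were also inside the range, except for 1 read. CSF1, the ligand of CSF1R, had 283 CPM in clone A against 115 to 473 (median 230.0), place 5. TNFSF11 (RANKL) had 1 read against 0 or 1, and its decoy TNFRSF11B (osteoprotegerin) had 0 reads against 0 to 10. Of the 6 tested, 3 lay over the median of the other clones on CPM and 3 after TMM scaling, beside 32.7% and 51.2% of all tested genes. The median log2 difference was 0.11 on CPM and 0.26 after TMM scaling.

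Macrophage markers, which monocyte-lineage cells would carry, were given by the same counts. Of the 20 markers, 10 had 0 reads in clone A. Of these, ITGAM, CYBB, C1QB and MARCO had 0 in every clone and so say nothing of clone A, while PTPRC, MSR1, LYZ, C1QA, C1QC and CD74 had reads in some other clone. The summed level of the list was 66.9 CPM in clone A against 14.8 to 110 in the other clones (median 38.1), of which CTSS gave 36.6 and LAPTM5 gave 25.7. CD68 had 27 reads, CD14 and CD163 had 4 reads each. The part of such cells in the levels of TNFRSF11A and LAPTM5 was not tested.

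**Figure D3:**
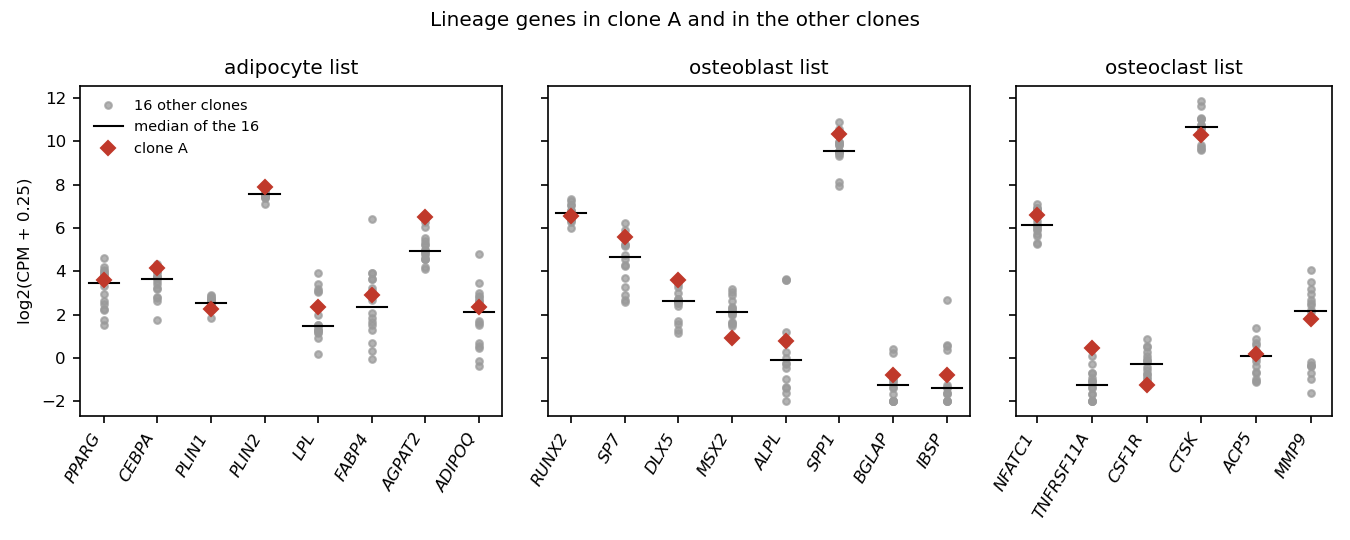
Levels of adipocyte, osteoblast and osteoclast genes as log2(CPM + 0.25) (y axis), with clone A as red diamonds, the 16 other clones as grey points and their median as black bars. Clone A lay above all others in AGPAT2, DLX5 and TNFRSF11A and below all others in MSX2 and CSF1R, and inside their range in the other 17 genes shown.

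**Figure D4:**
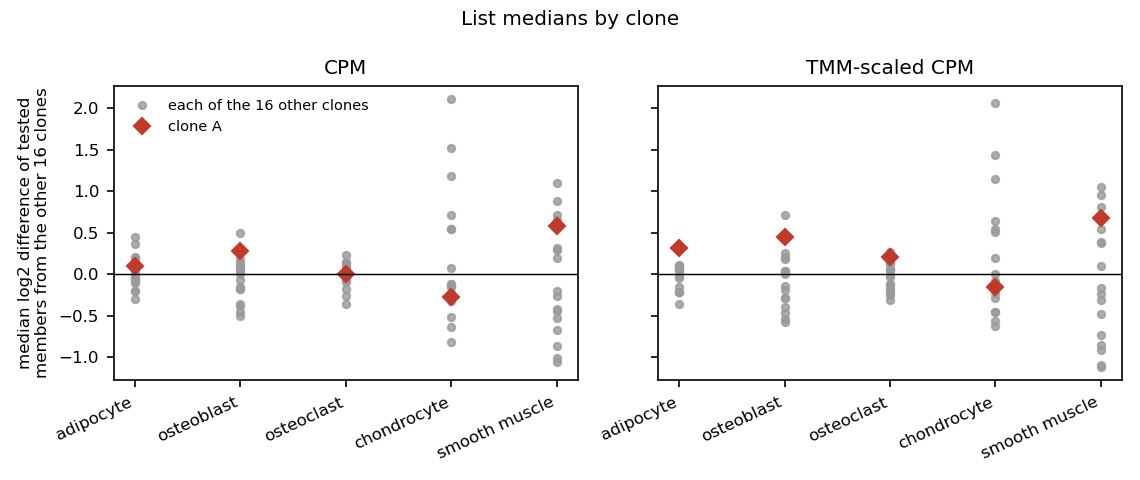
Median log2 difference of the tested members of each list (x axis) in 1 clone from the median of its 16 fellow clones (y axis), on CPM at left and TMM-scaled CPM at right, with clone A as red diamonds and each other clone as a grey point. Clone A moved from 0.10 to 0.32 in the adipocyte list, from 0.28 to 0.45 in the osteoblast list and from 0.01 to 0.21 in the osteoclast list.

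Cartilage genes, the subject of the study, did not single out clone A. Of 18 chondrocyte genes tested, 5 lay over the median of the other clones on CPM and 5 after TMM scaling. Of all tested genes, 32.7% and 51.2% did, so the list lay lower against all genes after TMM scaling. Its median log2 difference was -0.27 on CPM, place 13 of the 17 clones, and -0.15 after TMM scaling, place 10. Aggrecan (ACAN), the large proteoglycan of cartilage, had 117 CPM against 19.5 to 3032 (median 134), and COL2A1, the cartilage collagen, had 51.7 CPM against 19.4 to 1287 (median 67.0). SOX9, the factor that switches both on, had 11.8 CPM against 2.55 to 24.2 (median 10.2). PRG4 (lubricin) had 6 reads and 0.487 CPM against 0.572 to 602 (median 1.31), below all others on CPM and not after TMM scaling.

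Contractile genes of smooth muscle lay on the high side. Of 12 tested, 10 lay over the median of the other clones on CPM and 12 after TMM scaling, beside 32.7% and 51.2% of all tested genes, with median log2 differences of 0.58 and 0.68. None of the 12 lay outside the range of the other clones on either scale, where 1.58% of all tested genes lay above it and 14.1% below it on CPM. ACTG2, an enteric smooth muscle actin, had 554 CPM against 55.8 to 585 (median 222), place 3. TAGLN (transgelin) had 3645 CPM against 1195 to 3791 (median 2308), place 3, and ACTA2, the smooth muscle actin of myofibroblasts, had 4246 CPM against 468 to 6048 (median 2733), place 4. Clones K, F and E had higher medians of this list than clone A on both scales.

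In BMP signalling, 9 of 10 genes tested lay over the median of the other clones, with a median log2 difference of 0.27, against 32.7% of all tested genes on CPM. SMAD6, an inhibitor that BMP signals induce, had 29.1 CPM in clone A against 12.2 to 43.1 (median 24.4), and ID1, a target gene, had 10.2 CPM against 2.18 to 61.0 (median 8.27). Of 8 Wnt genes tested, 4 lay over the median. Over the BMP and Wnt genes together the median log2 difference was 0.24 on CPM and 0.40 after TMM scaling. SFRP2, a secreted modulator of Wnt signals, had 0 reads in clone A against 1 to 222 in the others. Taken at the 3 reads that a count of 0 allows (0.244 CPM), its level was at least 8.79-fold lower than the median of the other clones, 2.14 CPM, and 15 of the 16 other clones lay above that limit, which covers counting error only. WIF1, another Wnt inhibitor, had 4 reads against 0 to 4, above all others on CPM, and was not tested.

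Proliferation genes were in the middle, with MKI67, a protein of dividing cells, at 84.3 CPM against 19.4 to 650 (median 94.8) and a median log2 difference of -0.17 over the 15 genes tested. The cell cycle arrest list had a median of -0.18, with MDM2 below all others on CPM (30.6 against 30.7 to 81.8) and not after TMM scaling. The interferon list had a median of -0.24. Hypoxia genes had a median of 0.20, in which PFKFB4, a regulator of glycolysis, lay above all others after TMM scaling and at place 3 on CPM. Medians were -0.00 for cholesterol synthesis, -0.01 for immediate early and stress genes, 0.04 for tendon genes and 0.16 for stromal genes. All these medians are on CPM, and each was higher after TMM scaling. They were then 0.05 for proliferation, -0.12 for cell cycle arrest, -0.18 for interferon and 0.41 for hypoxia genes. For cholesterol synthesis, immediate early and stress, tendon and stromal genes they were 0.19, 0.12, 0.13 and 0.33. Of other cell types, EGFL7, an endothelial secreted protein, lay above all others at 3.33 CPM against 0.382 to 3.06, while 7 of 12 endothelial markers had 0 reads and PECAM1 and VWF were at place 16. The summed level of the endothelial list was 62.9 CPM against 17.4 to 89.0, of which ERG gave 56.8. ALAS2, of the erythroid list, was above all others with 3 reads. In the erythroid list 5 of 9 markers had 0 reads, in the lymphoid list 6 of 8 and in the Schwann list 3 of 5.

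The nearest clones to clone A over 11477 genes were B and J. The distance, Euclidean in log2(CPM + 0.25) over genes above 1 CPM in at least 1 clone, was 53.4 to clone B (Pearson r = 0.980 across genes) and 55.9 to clone J (r = 0.979), and then 62.9 to clone E, 65.4 to clone I and 65.9 to clone F. Clone N was the farthest at 108 (r = 0.926). Genes are not independent replicates, and the correlations describe these libraries only. Clone A did not stand at the edge of the set. Its mean distance to the other clones was 76.0, where the 17 clones ran from 70.3 (clone J) to 98.8 (clone N), and 5 clones had a smaller mean.

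The nearness was not mutual. Clone A was not the nearest neighbour of any clone, and it was the neighbour at place 4 of clone B and at place 3 of clone J. Among the 136 pairs of clones the pair A and B was at place 8 and the pair A and J at place 15, where the closest pair lay 25.6 apart, the median pair 81.4 and the farthest 115. Clones B and J lay 51.9 from each other. They were also the 2 clones with the smallest mean distances to all others, B at 70.6 and J at 70.3.

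**Figure D5:**
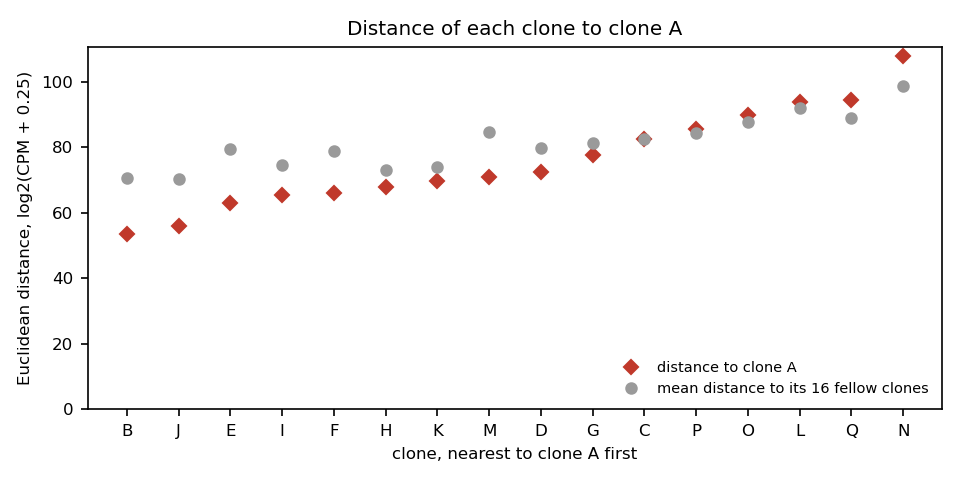
Euclidean distance of each other clone to clone A in log2(CPM + 0.25) over 11477 genes (red diamonds, y axis), ordered from the nearest, beside the mean distance of that clone to its 16 fellow clones (grey circles). Clones B (53.4) and J (55.9) lay nearest and N (108) farthest, and B and J also had the smallest means.

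Within the lineage lists the neighbours differed. Over the 27 tested adipocyte genes the nearest were clones I (3.601), B (4.09) and J (4.28), over the 26 osteoblast genes B (4.20), I (4.36) and F (4.44), and over the 13 osteoclast genes J (1.98), K (2.35) and B (2.92). The gene that separated clone A most from its nearest clone was ADIPOQ in the adipocyte list, higher than in clone I by 1.77 on the log2 scale. In the osteoblast list it was PHOSPHO1, higher than in clone B by 2.09. Clone A had 10 reads of PHOSPHO1 and clone B had 0 CPM, so the 0.25 added before the log2 sets the size of that difference. In the osteoclast list it was TNFRSF11A, higher than in clone J by 1.38, with 14 reads against 4.

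Between clone A and clone B, 205 of 10711 genes with a mean of at least 1 CPM were more than 2-fold higher in clone A and 208 were lower, 3.86% together. Against clone J the numbers were 168 higher and 318 lower, 4.54% together. These compare single libraries and have no test, and the genes named for them were chosen after their values were seen. AQP1, a water channel, had 181 CPM in clone A and 27.5 in clone B, and TRIM63, a ubiquitin ligase of muscle, had 12.5 and 0.822. In the other direction DSC3, a desmosomal cadherin, had 3.09 CPM in clone A and 28.03 in clone B, and the transporter gene SLC6A16 had 0 reads in clone A and 96 in clone B. Clone A exceeded clone J in both basement membrane collagen chains COL4A1 (17.5 against 1.62 CPM) and COL4A2 (6.50 against 0.493), and fell short of it in CYP1B1, a steroid and xenobiotic hydroxylase (2.52 against 48.8 CPM), and WISP2, a matricellular protein (3.82 against 47.6 CPM).

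After TMM scaling, clones A, B and J were the 3 highest of the 17 clones in 15 genes (0.128% of those tested) and the 3 lowest in 23 (0.196%). Over all 680 sets of 3 clones the mean was 17.3 genes a set (0.147%) in either direction, so both counts were near the mean of such sets. INA, a neuronal intermediate filament protein, had 12.8 to 21.0 TMM-scaled CPM in these 3 clones against 1.08 to 10.03 in the other 14. PTHLH, the parathyroid hormone-related protein of growing cartilage and bone, had 6.54 to 10.5 against 1.88 to 5.80. Among the genes in which the 3 were lowest, BRCA2, of DNA repair by recombination, had 4.11 to 6.56 against 6.70 to 37.3, and FANCM had 6.95 to 11.1 against 11.7 to 20.9. These genes were likewise chosen after their values were seen.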

How the data were processed

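Poly-adenylated RNA of 17 clones and a heterogeneous population was sequenced by the authors as single-end reads, aligned to bosTau7 with STAR 2.3.0e and counted with HTSeq on RefSeq genes of cattle (tools per the submitters' processing notes and the study's methods). The deposited values are raw whole-number counts for 16989 genes, without normalization. The lines that name no gene (18.8% to 26.8% of a clone's reads on no gene feature, 0.164% to 0.192% ambiguous) stayed out of library sizes and tests. A table of the whole series was not used here. Of the gene symbols, 16350 (96.2%) matched the RefSeq table of ARS-UCD2.0, a build other than the authors', used for names only, and 2614 had 0 reads in all clones.

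Groups followed the sample titles. The members and the 20 gene lists were chosen with earlier results of these data known. edgeR 4.0.16 (TMM, filterByExpr, glmQLFit, glmQLFTest) in R 4.3.3 compared clone A with the 16 others over 11761 genes, with Benjamini-Hochberg adjustment and a threshold of 0.05. DESeq2 1.42.0, limma 3.58.1, other size factors, filters, pseudocounts and clones left out were alternatives. List members are differences in log2(CPM + 0.25) from the median of the other clones. With 11484812 to 18458157 reads a clone, 3 reads, the limit for a count of 0, were 0.163 to 0.261 CPM. The count tests were tested on simulated data. Named were a set of lineage markers, list members outside the range of the other clones and, among other genes outside it with a mean of at least 1 CPM, the 12 a direction with the smallest edgeR p. Python 3.11.15, numpy 2.4.6, pandas 2.3.3 and matplotlib 3.10.9 did the rest. Of the list members outside the range, 1 is not reported here. Gene lengths, coordinates and sequences were not analysed here.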

Additional observations from a re-analysis of the deposited data

How the results depend on the processing

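No paired analysis was possible because each clone gave 1 library and the labels pair clone A with no other clone. The count of edgeR calls was 0, and 1 (PTPRN) with the Wald test of DESeq2, and it ran from 0 to 1 with each other clone left out in turn, the 1 being PTPRN without clone E or clone G. It stayed 0 with DESeq2 size factors, with library totals, with limma, without a filter and without clones N and M. Genes with clone A above all others numbered 186 on CPM, 698 with TMM and 656 with DESeq2 size factors, 333 without a filter and 108 at a mean of at least 10 CPM. Genes with it below all others numbered 1660 on CPM, 787 with TMM and 849 with DESeq2 size factors. The adipocyte median log2 difference (0.10) was 0.32 with TMM and 0.02 against the mean of the other clones, and ran from -0.16 to 0.25 with each clone left out. It was negative without B, D, E, F, J, K, N, P or Q, at -0.16 without B, F or K, -0.15 without E and -0.12 without D, so its sign on CPM rests on single clones. The osteoblast median (0.28) ran from 0.20 to 0.37 with each clone left out, was 0.18 over members with a mean of at least 1 CPM and 0.45 with TMM, and kept its sign under every alternative run. The osteoclast median (0.01) was 0.21 with TMM, 0.20 with DESeq2 size factors and 0.16 against the mean of the other clones, and ran from -0.03 to 0.04 with each clone left out, being negative without C, D, F, I, K, M, N, O, P or Q. Clones B and J stayed the 2 nearest in all 5 alternatives, with J first when genes were scaled to unit SD. Members with a read in some clone, an alternative chosen after seeing the data, gave list medians of 0.10, 0.23 and 0.01. Depth limits genes with few reads, such as TNFRSF11A and CSF1R, most.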

Other observations

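The heterogeneous population, which entered no comparison between the clones, lay 92.9 from clone A by the same distance, and the 17 clones lay between 73.7 and 125 from it, with clone A at place 9. It held 0.249 CPM of PTPRN, 0.0621 of GALNT9, 1.74 of MMP17 and 10.1 of SLIT3, all below the level in clone A, but 48.3 CPM of LAPTM5, above its level in clone A.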
